A study of Drosophila melanogaster with 51 samples.

Results

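The heterochromatin next to the centromere on the left arm of chromosome 3 (3L) was described in wing imaginal discs of Drosophila melanogaster, the epithelial sacs of the larva from which wing and notum develop. Its members are the intervals of 2 deposited peak lists, of HP1 and of H3K9me3, whose middle lies at or beyond 3L 22991510 on build dm6. They were chosen by position alone. The HP1 list holds 173 such intervals of 1435, and the H3K9me3 list 714 of 2245, which makes 887 of 3680 in all. The described stretch runs to 28091510, the largest listed coordinate, and measures 5.1 Mb.

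The series profiled chromatin by CUT&RUN, which sequences the DNA that an antibody-tethered nuclease cuts loose around a chromatin protein, with 51 libraries in 18 groups. Per the labels, each library came from at least 20 discs of wandering female third-instar larvae grown at 25 °C. By the names of the calls, 635 of the 714 H3K9me3 intervals came from replicate 1 of HWT and 79 from a source named ywdf. All HP1 intervals came from a merged ywdf profile, and the background regions came from an anti-GFP profile named yw. HWT larvae lack the native histone gene cluster (∆HisC) and carry the transgene H3.2HWT, a wild-type replacement, together with twi-Gal4 and UAS-2xEYFP in a yw background. What ywdf denotes is not given in the sources used here. The genotype label of the yw anti-GFP libraries reads GFP-HP1a/+ although their titles read yw. Call names carry "pel" for H3K9me3 and for the background and "sup" for HP1, words that the labels give only for anti-GFP libraries. Which antibody and libraries the HP1 list came from is therefore not given in the sources used here. Between the HP1 list and the 635 HWT intervals, target, source and the words pel and sup differ together and cannot be told apart, and the 79 ywdf intervals share the source name with HP1.

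H3K9me3, trimethylation of lysine 9 of histone H3, is the main mark of constitutive heterochromatin, and HP1a binds it through its chromodomain. Pericentric heterochromatin in flies is rich in transposons and satellite repeats, yet holds active genes, many of them essential, and several need their heterochromatic setting for normal expression. Many of these genes are long because their introns are filled with transposon remnants.

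No values of single libraries were analysed, so depth per library is unknown and there is no spread between replicates. Neighbouring intervals are not replicates either, and no p-values are given. Shares carry exact binomial (Clopper-Pearson) 95% intervals and ratios of densities carry exact conditional binomial 95% intervals, both of which cover counting error only. How well reads could be placed in repeats was not tested. Fold enrichment is the authors' value for a whole call over the caller's expectation, and it is used only to describe and rank intervals. No genome sequence or strand was used here, so sequences are not shown and gene starts are not told from gene ends.

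In pericentric 3L, HP1 intervals covered 180 kb, or 3.52% of the 5.1 Mb, and H3K9me3 intervals covered 416 kb, or 8.16%. The HP1 intervals were 10 to 7402 bp wide with a median of 501 bp, and their fold enrichment was 2.58 to 36.3 with a median of 5.37. The H3K9me3 intervals were 9 to 13757 bp wide with a median of 368.5 bp, and their fold enrichment was 2.82 to 37 with a median of 5.04. H3K9me3 was thus listed in more and narrower pieces. The lists also differ in stringency, since the lowest −log10 q-value of a member was 5.02 for HP1 and 1.42 for H3K9me3.

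At the arm side the members began abruptly. The first H3K9me3 interval, at 23041763 to 23042070 (dm6), lay 50.4 kb inside the boundary with a fold enrichment of 4.13, and the last one outside lay 1506 kb before it, with 7.43. The first HP1 interval lay 88.8 kb inside with 3.18, and the last one outside lay 113 kb before the boundary with 5.02. In the 1 Mb before the boundary there were 0 H3K9me3 and 2 HP1 intervals.

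**Figure D1:**
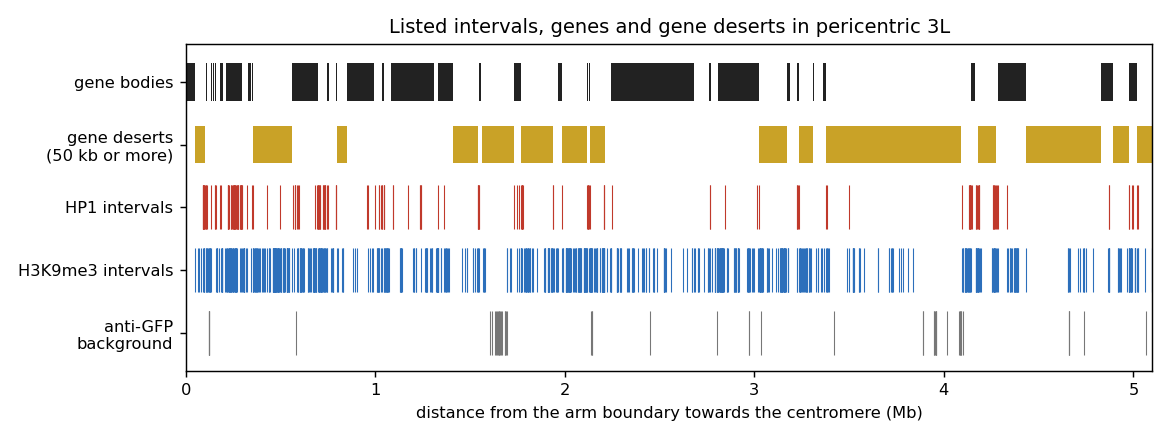
Gene bodies, gene deserts and the middles of the 173 HP1, 714 H3K9me3 and 49 anti-GFP background intervals, plotted by distance in Mb from the arm boundary (left) towards the centromere (right). HP1 intervals gather where genes are, H3K9me3 intervals also run through deserts, and both lists are sparse in the long desert that ends near 4.09 Mb.

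Genes were compared with gene deserts, which were defined as stretches of at least 50 kb with no annotated gene of any type. Gene bodies made up 1.86 Mb (36.4%) of pericentric 3L, 15 deserts 2.58 Mb (50.7%) and shorter gaps the other 659 kb. HP1 was denser in genes, with 89 intervals or 47.9 per Mb by their middle base, than in deserts, with 37 intervals or 14.3 per Mb, a ratio of 3.35 (2.26 to 5.05). HP1 intervals covered 4.32% of the bases of genes and 1.32% of those of deserts. H3K9me3 had 247 intervals in genes, or 133 per Mb, and 325 in deserts, or 126 per Mb, a ratio of 1.06 (0.892 to 1.25). They covered 7.05% of genes and 6.48% of deserts. The interval of the HP1 ratio lay above 1, and that of the H3K9me3 ratio included 1. The 30 HP1 intervals of a single gene, nAChRalpha4, carry part of this, and the HP1 ratio without that gene was 2.32 (1.51 to 3.6). Among intervals with a −log10 q-value of at least 10 the ratio was 2.92 (1.86 to 4.67) for HP1 and 1.32 (0.960 to 1.82) for H3K9me3.

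The shorter gaps between genes were the densest places in both lists. They held 47 HP1 intervals, or 71.3 per Mb, and 142 H3K9me3 intervals, or 215 per Mb. Of their bases 9.91% lay under HP1 and 17.8% under H3K9me3. Relative to deserts, the density of gaps was 4.98 times as high for HP1 (3.17 to 7.88) and 1.71 times as high for H3K9me3 (1.40 to 2.09).

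Most HP1 intervals placed in deserts lay at the edges of them. Of the 37, 2 touched a gene, 17 lay within 5 kb of one and 34 within 20 kb, and 3 (8.11%, 1.70 to 21.9) lay farther out. Placed in a desert by its middle base, the 7402 bp interval that reaches over RpL15 is among those that touched a gene. Of the 325 H3K9me3 intervals in deserts, 6 touched a gene, 44 lay within 5 kb of one, 129 within 20 kb and 196 (60.3%, 54.8 to 65.7) farther out. As listed, the deserts thus held 196 H3K9me3 intervals and 3 HP1 intervals more than 20 kb from genes. The lists differ in stringency and in the share of calls that they hold, and the part of this in these counts was not tested.

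The deserts were unlike each other. The longest, 711 kb between CG42598 and CG40228 (26371357 to 27082090), held 3 HP1 and 31 H3K9me3 intervals, or 4.22 and 43.6 per Mb. The next, 399 kb between Dbp80 and lncRNA:CR46482 (27422160 to 27821332), held 0 HP1 and 12 H3K9me3 intervals. By contrast, the 209 kb between ND-MLRQ and AGO3 (23345937 to 23554592) held 2 HP1 and 65 H3K9me3 intervals, which covered 17.6% of it. The fourth in length, 170 kb between CR41597 and scro (24554201 to 24724161), held 1 HP1 and 8 H3K9me3 intervals, beside 15 background regions that covered 29.0% of it. The fifth, 169 kb between scro and CG40472 (24758037 to 24927129), held 6 HP1 and 36 H3K9me3 intervals. Over all 15 deserts the H3K9me3 density was 30.1 to 356 per Mb with a median of 151, and 5 deserts held no middle of an HP1 interval. Of the 49 background regions 39 lay in deserts, and their part in these densities was not tested.

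**Figure D2:**
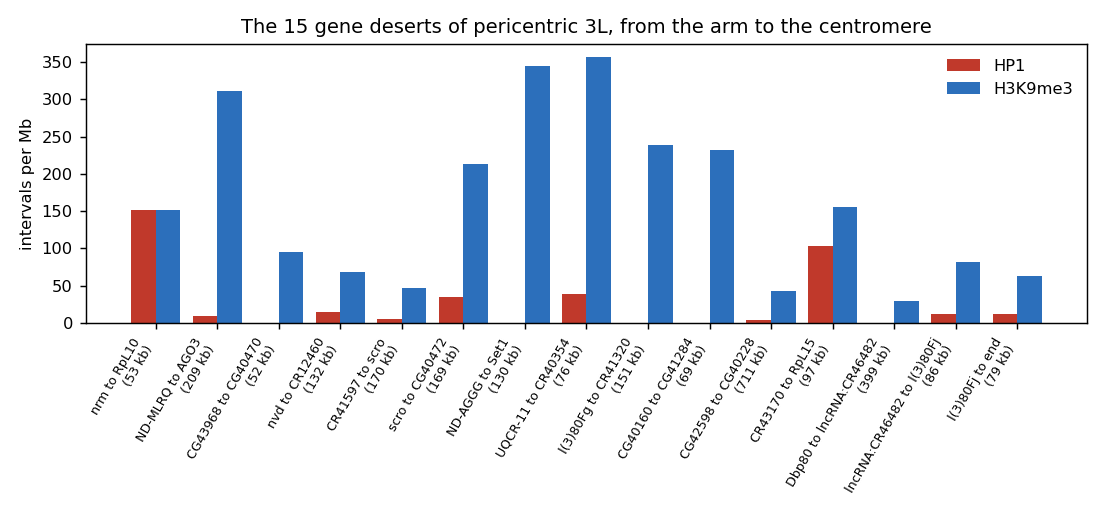
Density of HP1 and H3K9me3 intervals, in intervals per Mb by their middle base, in each of the 15 gene deserts, named by the flanking genes and ordered from the arm to the centromere. H3K9me3 ranges from 30.1 to 356 per Mb, and HP1 exceeds 100 per Mb in the deserts that adjoin RpL10 and RpL15.

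Both lists covered more of the sequence near gene ends than far from them, and HP1 fell more steeply with distance. Inside gene bodies, HP1 covered 27.9% of the bases up to 0.2 kb from an annotated end and 19.1% of those from 0.2 to 1 kb. It covered 7.11% from 1 to 5 kb, 3.58% from 5 to 20 kb and 1.66% beyond. H3K9me3 covered 23.6%, 14.4%, 7.20%, 5.66% and 6.55% at the same distances. Outside genes, HP1 covered 29.4% up to 0.2 kb, 27.7% from 0.2 to 1 kb and 15.6% from 1 to 5 kb. It covered 2.66% from 5 to 20 kb and 0.0479% beyond. Outside genes H3K9me3 covered 24.8%, 23.4%, 23.5%, 11.4% and 4.69% in the same steps, and so changed little up to 5 kb. Next to genes the lists thus covered similar shares of sequence, and far from them nearly all listed sequence was H3K9me3.

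**Figure D3:**
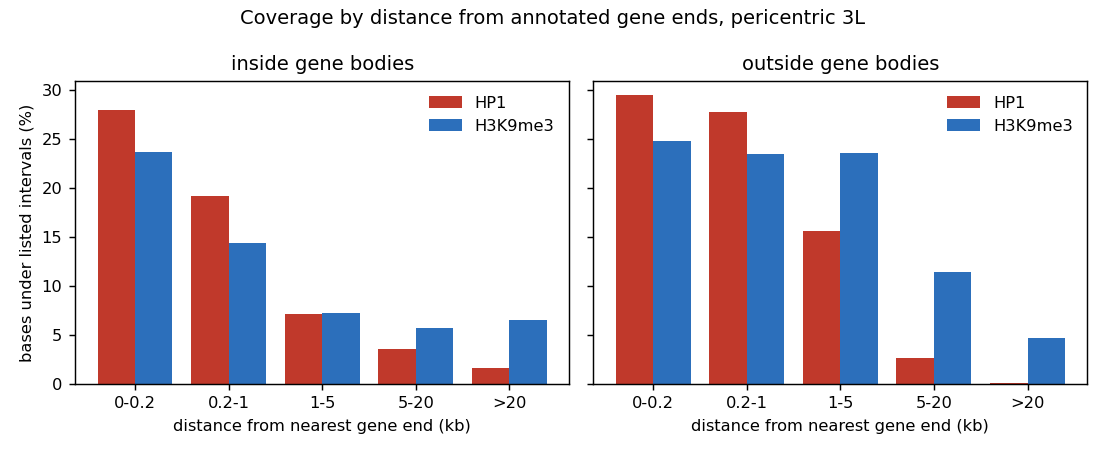
Percent of bases under HP1 and H3K9me3 intervals by distance in kb from the nearest annotated gene end, inside gene bodies (left) and outside them (right). HP1 drops to 1.66% inside and 0.0479% outside beyond 20 kb, and H3K9me3 to 6.55% and 4.69%.

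Counted by interval, 31 of 173 HP1 intervals (17.9%, 12.5 to 24.5) had a base within 200 bp of a gene end, below the 27.9% of the whole HP1 list. For H3K9me3 the count was 35 of 714 (4.90%, 3.44 to 6.75), against 9.04% of its whole list. By their middle base the counts were 10 and 7. Gene bodies were touched by 106 HP1 intervals (61.3%, 53.6 to 68.6), against 67.9% of the list, and by 263 H3K9me3 intervals (36.8%, 33.3 to 40.5), against 42.9%. Intervals at gene ends were the wide ones. In the middle of their range the 31 HP1 intervals measured 2155 bp with a fold enrichment of 10.9 (medians), against 417 bp and 5.03 for the other 142. The 35 H3K9me3 intervals had medians of 1271 bp and 10.3, against 355 bp and 4.95 for the other 679. A wider interval reaches a gene end more easily.

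The lists were next compared with each other, an interval being shared when at least 1 bp lay in an interval of the other list. Of the HP1 intervals 81 of 173 (46.8%, 39.2 to 54.5) were shared, against 32.1% of the whole HP1 list. Of the H3K9me3 intervals 94 of 714 (13.2%, 10.8 to 15.9) were shared, against 22.3% of the whole H3K9me3 list. In bases, 88.4 kb were common to both lists, which is 49.2% of the sequence under HP1 and 21.2% of that under H3K9me3. By source, 92 of the 635 HWT intervals (14.5%, 11.8 to 17.5) and 2 of the 79 ywdf intervals (2.53%, 0.308 to 8.85) touched HP1. The ywdf intervals are a small listed part of their calls, since 6.90% of the spanned ywdf call numbers were listed, against 70.4% for HWT. The part of this selection in the difference was not tested. Among intervals with a −log10 q-value of at least 10 in both lists, 28.2% of HP1 and 21.7% of H3K9me3 intervals were shared, so that the lists differed less. Sharing also depends on the overlap asked for: with at least 50% of the interval covered, 27.2% of HP1 intervals qualified, and with at least 50% of both intervals 19.1%. For H3K9me3 the share with at least 50% of both was 4.62%.

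Unshared HP1 intervals were rarely far from H3K9me3. The median distance to the nearest H3K9me3 interval was 1.96 kb, 88 of the 92 lay within 10 kb, and the largest distance was 23.2 kb. Of the 620 unshared H3K9me3 intervals 196 lay within 10 kb of HP1 and 50 lay more than 100 kb away, with a median of 21.7 kb. H3K9me3 intervals were 4.13 times as many, and the part of their number in these distances was not tested.

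Shared intervals were wider and more enriched. The median shared HP1 interval spanned 1074 bp and the median enrichment was 6.21, against 358 bp and 4.58 for unshared ones. Shared H3K9me3 intervals had medians of 518.5 bp and 7.65, against 343.5 bp and 4.95 for unshared ones. Because sharing asks for 1 bp, a wider interval is more easily shared, as it also reaches a gene end more easily. Gene ends set the classes apart in the same way. Of shared HP1 intervals 25 of 81 (30.9%, 21.1 to 42.1) lay at a gene end, against 6 of 92 unshared ones (6.52%, 2.43 to 13.7). For H3K9me3 the counts were 23 of 94 shared (24.5%, 16.2 to 34.4) and 12 of 620 unshared (1.94%, 1.00 to 3.36). Gene bodies were touched by 59.3% of shared and 63.0% of unshared HP1 intervals, and by 55.3% of shared and 34% of unshared H3K9me3 intervals. Seen from the place, HP1 was shared in 33 of 89 intervals with their middle in genes (37.1%, 27.1 to 48), 19 of 37 in deserts (51.4%, 34.4 to 68.1) and 29 of 47 in shorter gaps (61.7%, 46.4 to 75.5). H3K9me3 was shared in 15.4% of its intervals in genes, 7.69% in deserts and 21.8% in shorter gaps. By the middle base of the interval, 7 of 81 shared HP1 intervals (8.64%, 3.55 to 17.0) and 3 of 92 unshared ones (3.26%, 0.678 to 9.23) lay at a gene end, so that the confidence intervals of these shares overlap.

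Density changed with distance from the arm. In successive 0.5 Mb steps from the boundary the HP1 list had 106, 62, 34, 34, 20, 6, 18 and 0 intervals per Mb up to 4 Mb. It then had 50 per Mb between 4 and 4.5 Mb and 12 between 4.5 and 5 Mb, with 2 intervals in the last 0.1 Mb. As listed, HP1 was densest in the first step, but 30 of its 53 intervals there lay in nAChRalpha4. Without them and the length of that gene the first step had 54.9 per Mb, below the 62 of the second. A further block of 25 intervals stood nearer the centromere. That block lies around CG40228, vtd, RpL15 and the arm-side end of Dbp80. H3K9me3 had 230, 180, 134, 124, 218, 142, 144 and 48 intervals per Mb up to 4 Mb, then 122 and 64 per Mb, and 11 intervals in the last 0.1 Mb. It kept more of its density, so that H3K9me3 intervals per HP1 interval stood at 2.17 in the first step, 10.9 between 2 and 2.5 Mb, 23.7 between 2.5 and 3 Mb and 2.44 between 4 and 4.5 Mb. The steps also differed in their share of deserts. Deserts made up 39.7% of the first step, 23.1% of the second and 0% between 2.5 and 3 Mb. They made up 100% between 3.5 and 4 Mb and 83.1% between 4.5 and 5 Mb. The part of genes and deserts in the profile with distance was not tested.

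**Figure D4:**
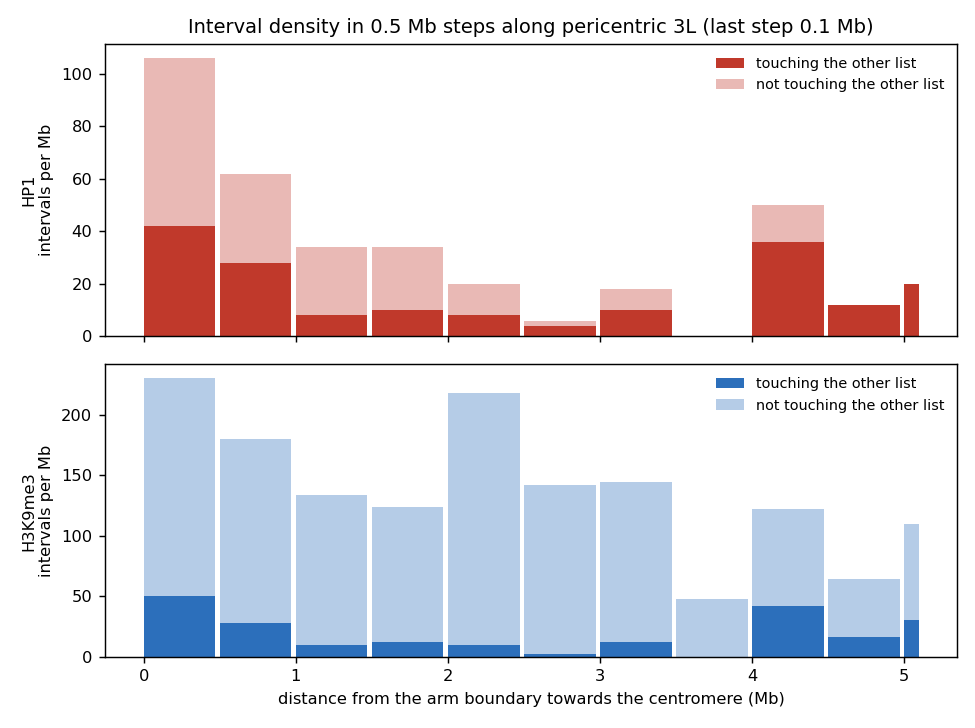
Density of HP1 (top) and H3K9me3 (bottom) intervals per Mb in 0.5 Mb steps of distance from the arm boundary, with shared intervals in the darker colour. HP1 drops from 106 per Mb next to the arm to 0 between 3.5 and 4 Mb and is 50 per Mb between 4 and 4.5 Mb, while H3K9me3 is 48 to 230 per Mb throughout.

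Relative to all other steps together, the first 0.5 Mb had 4.06 times the density of HP1 (2.88 to 5.66) and 1.77 times that of H3K9me3 (1.43 to 2.16). The HP1 value leans on 1 locus. The 30 HP1 intervals in nAChRalpha4 belong to 12 calls, and without this gene the ratio was 2.1 (1.28 to 3.31). With the intervals of 1 call joined, it was 2.85 (1.76 to 4.47). The steps are counted from the boundary given above. With the boundary 0.5 Mb farther out the first step was nearly empty, with ratios of 0.0590 for HP1 and 0 for H3K9me3.

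Sharing also varied along the stretch. Of the HP1 intervals in the first 1 Mb 35 of 84 (41.7%, 31.0 to 52.9) were shared, then 9 of 34 between 1 and 2 Mb (26.5%, 12.9 to 44.4) and 37 of 55 beyond (67.3%, 53.3 to 79.3). Of the H3K9me3 intervals 39 of 205 (19.0%, 13.9 to 25.1) were shared in the first 1 Mb, 11 of 129 (8.53%, 4.33 to 14.7) in the next and 44 of 380 (11.6%, 8.54 to 15.2) beyond. As listed, HP1 intervals beyond 2 Mb were thus more often at H3K9me3 intervals than those between 1 and 2 Mb, and those between 4 and 4.5 Mb were shared in 18 of 25 cases. The confidence intervals treat each interval as independent, whereas 101 of the 173 HP1 intervals are pieces of 38 calls. Sharing along the stretch was not recomputed by call, so the difference was not tested.

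A stretch without listed HP1 is not one without HP1 calls. The longest HP1-free stretch, 592 kb from 26490592 to 27082895, held 24 H3K9me3 intervals and 14 background regions. The numbers in the HP1 call names skip 29 calls there, so calls were made within it that the list does not hold. Over the whole of pericentric 3L, 110 of 532 spanned HP1 call numbers (20.7%) and 522 of 741 HWT H3K9me3 call numbers (70.4%) were listed. For ywdf H3K9me3 calls the count was 66 of 957 (6.90%). The listed share of HP1 numbers was 40% in the first 0.5 Mb, 39.5% between 4 and 4.5 Mb and 17.4% between 4.5 and 5 Mb. The listed share thus varied with distance, and its part in the profile was not tested.

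The stretch holds 37 annotated protein-coding genes. HP1 intervals reached into the body of 32 (86.5%, 71.2 to 95.5), against 3.71% of all protein-coding genes, and H3K9me3 intervals into 30 (81.1%, 64.8 to 92.0), against 1.26%. These counts ask for 1 bp, and with at least 10% of the body covered the shares in the stretch were 51.4% for HP1 and 43.2% for H3K9me3. Both marks fell in 29 genes, against 161 of all 13946 protein-coding genes. HP1 alone fell in CG33217, CG40298 and CG43968, H3K9me3 alone in CG42598, and neither in nrm, RpL10, CG40472 and CG41284. In 25 genes at least 1 base was common to both lists, against 141 of all 13946. HP1 lay within 200 bp of an end of 27 genes and H3K9me3 of 22, and each of these 22 genes also had HP1 at an end. The shares of all protein-coding genes with a mark at an end were not computed.

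Long and short genes were covered differently. The 11 genes of at least 30 kb hold 1578 kb, with 2.79% of their bases under HP1 and 6.61% under H3K9me3. Of their 44016 bp under HP1, nAChRalpha4 gave 24773 bp, and the other 10 had 1.29% under HP1 and 6.32% under H3K9me3. The 26 shorter genes hold 189 kb, with 13.0% under HP1 and 8.31% under H3K9me3. Among shorter genes 22 of 26 had HP1 at an end and 19 had H3K9me3, and among long ones 5 of 11 and 3 did.

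**Figure D5:**
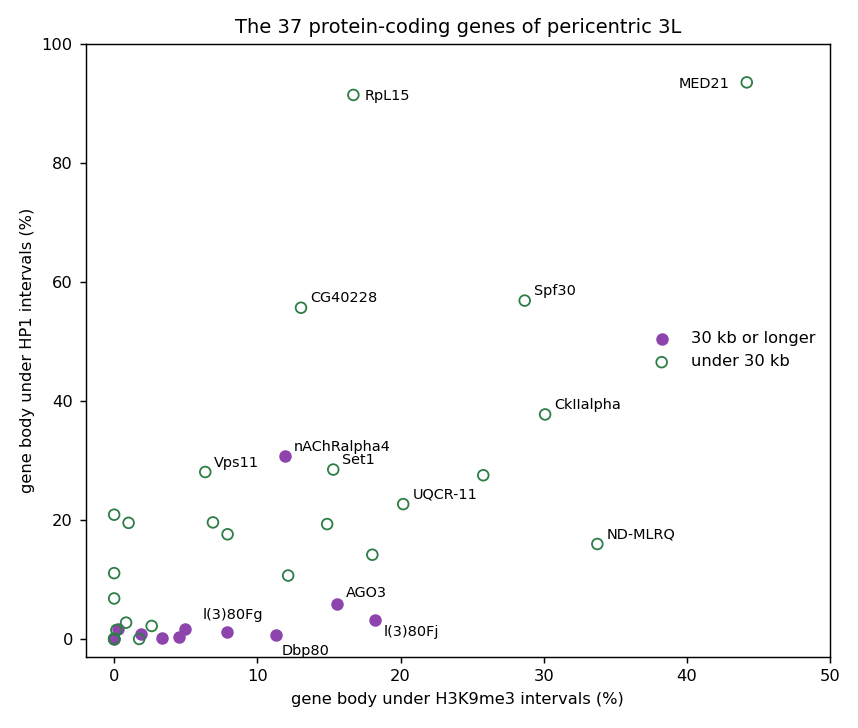
Percent of the gene body under HP1 (vertical axis) against the percent under H3K9me3 (horizontal axis) for each of the 37 protein-coding genes, filled where the gene is 30 kb or longer. MED21 and RpL15 have over 90% of their bodies under HP1, and of the long genes nAChRalpha4 has 30.7% and AGO3 5.87%.

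Genes of the translation machinery ranged widely. RpL15, a protein of the large ribosomal subunit (27267255 to 27268445), had HP1 over 91.4% and H3K9me3 over 16.7% of its bases. Its HP1 interval was the widest of the stretch, with 7402 bp and a fold enrichment of 9.31. mRpS5, a mitochondrial ribosomal protein gene, had 17.6% and 7.92%. The initiation factor gene eIF4B had 1.5% and 0.160%, both from the edge of intervals at one end. RpL10, the other ribosomal protein gene here, had no interval in its body, but an HP1 interval lay 0.116 kb and an H3K9me3 interval 0.136 kb from it.

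Chromatin, transcription and RNA genes ranged as widely. Set1, an H3K4 methyltransferase (25107594 to 25115180), had 28.5% under HP1 and 15.3% under H3K9me3, and MED21, a Mediator subunit (25114924 to 25115946), had 93.5% and 44.2%. Their annotated bodies overlap. The only HP1 interval in MED21, of 6518 bp (25114990 to 25121507), also reaches into one end of Set1 and into UQCR-11. It cannot be assigned to 1 of these genes. Set1 held 5 HP1 intervals with this one. Spf30, a splicing factor, had 56.9% and 28.7%. By contrast vtd, which encodes the cohesin subunit Rad21, had 2.74% and 0.834%, all from 2 HP1 intervals and 1 H3K9me3 interval. AGO3, an Argonaute of the piRNA pathway (23554593 to 23689640), had 11 HP1 and 32 H3K9me3 intervals over 135048 bp, with 5.87% and 15.6% covered and none within 200 bp of its ends. Dbp80, a DEAD-box RNA helicase (27279316 to 27422159), had 0.716% under HP1 and 11.3% under H3K9me3. The homeobox gene scro had 1.59% and 0.260%.

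The stretch also holds genes of the respiratory chain. ND-AGGG, a complex I subunit, had 27.5% under HP1 and 25.8% under H3K9me3, ND-MLRQ 16.0% and 33.7%, and UQCR-11, of complex III, 22.7% and 20.2%. UQCR-11 also held the H3K9me3 interval of highest fold enrichment, 37 over 214 bp, which came from the ywdf source and touched no HP1 interval.

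Among neuronal, adhesion and signalling genes was the gene with the most bases under HP1. nAChRalpha4, an acetylcholine receptor subunit (23206669 to 23287448), carried 30 HP1 and 27 H3K9me3 intervals, with 24773 bp (30.7%) under HP1 and 9615 bp (11.9%) under H3K9me3. It held 17.3% of all HP1 intervals of the stretch, of which 9 were shared, and their fold enrichment was 2.58 to 10.3. Snap25, a SNARE protein of synaptic vesicle fusion, had 1.72% and 4.96% over 225026 bp. lovit, a vesicular transporter gene and the longest of the stretch with 434041 bp, had 1 HP1 interval (0.117%) and 41 H3K9me3 intervals (3.37%). CkIIalpha, the catalytic subunit of casein kinase 2, had 37.7% under HP1 and 30.1% under H3K9me3. Every base of it under H3K9me3 was also under HP1, as in RpL15, MED21, Spf30 and further genes. alpha-Cat, which links cadherins to actin, had 2.18% and 2.62%, and the adhesion gene nrm, next to the arm, had neither mark. Vps11, an endosomal tethering factor, had 28.1% and 6.36%. In Snap25 and lovit, the longest of these genes, H3K9me3 thus covered more than HP1, and in nAChRalpha4 HP1 covered more.

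The metabolic genes nvd and FASN3 differed in length and in coverage. nvd, an oxygenase of ecdysteroid synthesis (76790 bp), had 0.324% under HP1 and 4.56% under H3K9me3, with no base in common. FASN3, a fatty acid synthase (9921 bp), had 14.2% and 18.0%, with 1212 bp in common. Of less characterised genes, l(3)80Fg had 2576 bp under HP1 and 17072 bp under H3K9me3, l(3)80Fj 1435 bp and 8250 bp, CG40160 2629 bp and 2026 bp, CG17698 2174 bp and 766 bp, and CG40045 1433 bp and 74 bp. Of 14 names set down as known genes of 3L heterochromatin 11 lie in the stretch, and 10 of these held HP1, 10 held H3K9me3 and 8 a common base, against 32, 30 and 25 of all 37 protein-coding genes.

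Of the 5 widest intervals of each list, all 5 of HP1 and 3 of H3K9me3 touched a gene. After that of RpL15, the widest HP1 intervals were 7103 bp over one end of CG40228 (fold enrichment 19.1), 6518 bp reaching into Set1, MED21 and UQCR-11 (12.9), 5499 bp at eIF4B (23.5) and 4658 bp at Dbp80 (15.7). The widest H3K9me3 interval, 13757 bp at 23301951 to 23315707, lay between nAChRalpha4 and alpha-Cat with a fold enrichment of 17.2. It was followed by 6792 bp at CG40228, 5836 bp over MED21 and UQCR-11, 5697 bp between RpL15 and Dbp80 and 4572 bp at vtd. Each of these 10 intervals was shared.

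The strongest HP1 interval lay at the centromere-side end of l(3)80Fg, at 26011927 to 26015910, with a fold enrichment of 36.3, followed by 2 pieces of 1 call (23.5), at eIF4B and in the lncRNA gene that spans it, that at CG40228 (19.1) and 1 at ND-AGGG (18.4). All 5 were shared and touched a gene. After the one in UQCR-11, the strongest H3K9me3 intervals had fold enrichments of 36.3, 26.8, 26.6 and 22.3 and lay in deserts, and 1 of these 4 was shared. The 5 most enriched intervals thus touched genes in the HP1 list, and 4 of 5 lay in deserts in the H3K9me3 list. This H3K9me3 ranking mixes 2 sources. The intervals of 26.6 and 22.3, like that in UQCR-11, came from the ywdf source. Its 79 intervals had a median fold enrichment of 8.30, against 4.95 for the 635 HWT intervals.

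Set beside the pericentric parts of 2L (1.5 Mb) and 3R (4.6 Mb), the 3L part had the highest H3K9me3 coverage of these 3. H3K9me3 covered 8.16% of the 3L part, 5.95% of that of 2L and 2.24% of that of 3R, and HP1 covered 3.52%, 5.50% and 1.13%. H3K9me3 intervals per HP1 interval were 4.13, 2.01 and 3.73 in that order. HP1 was shared in 46.8%, 53.2% (41.6 to 64.5) and 37.3% (24.1 to 51.9), with overlapping intervals. H3K9me3 was shared in 13.2%, 28.9% (22.0 to 36.6) and 14.2% (9.58 to 20.0), so that the confidence interval of 3L lay below that of 2L and overlapped that of 3R. Within 1 kb of a gene end HP1 covered 24.4% of the 3L sequence, 23.9% of that of 2L and 7.44% of that of 3R. Beyond 20 kb outside genes it covered 0.0479%, 0.0661% and 0.895%. Of protein-coding genes 32 of 37 held HP1 on 3L, 22 of 37 on 2L and 12 of 68 on 3R, and 30, 12 and 8 held H3K9me3. The stretches of 2L and 3R were cut at a set length and differ in share of gene bodies, and none of these differences was tested.

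The anti-GFP list placed 49 regions in pericentric 3L, over 85.8 kb. None of the 173 HP1 intervals touched one, against 15 of 1435 (1.05%) in the whole HP1 list. Of the 714 H3K9me3 intervals 7 (0.980%) did, none of them shared with HP1, against 63 of 2245 (2.81%) in the whole H3K9me3 list. The submitters' name for the anti-GFP list is a blacklist, and whether calls that touch it had been removed from the other lists was not tested. In genes lay 4 of the regions, in shorter gaps 6 and in deserts 39.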

How the data were processed

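Per the submitters' processing notes, reads were handled on build dm6 with these tools: MACS2 2.1.2, bedtools 2.26, SAMtools 1.10 and Bowtie2 2.3.4.1. The deposited lists give, for each called peak, a fold enrichment (a ratio to the caller's expectation), a −log10 q-value, and a score that was 10 times the −log10 q-value, rounded down, for 100% of intervals, all as the authors' values. The p-values and summits were not used. Listed intervals can be parts of 1 call and then carry the same values. Call names give the source of each interval and, for HP1 and H3K9me3, state that duplicates were kept.

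Intervals were assigned by their middle, gene positions were those of RefSeq on assembly Release 6, the assembly of dm6, and all 37 protein-coding and 31 other genes of the stretch were used. Overlap, density and coverage were computed with Python 3.11.15, pandas 2.3.3, NumPy 2.4.6 and SciPy 1.17.1, and the interval functions were first tested on planted intervals of known overlap. The planned summary of sequence was not run. Members and lists were chosen with earlier results of these data known. Named were the 8 protein-coding genes with the most bases under HP1, under H3K9me3 and under both, the 5 widest and 5 most enriched intervals of each list, the 5 longest deserts and any gene of the list of 14. The names spok and Pzl lie on 3R in the table and CG17454 matched none. Further genes were named by role, after their values were seen.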

Additional observations from a re-analysis of the deposited data

How the results depend on the processing

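No paired analysis was possible because single replicates have no values in the lists, so none could be left out in turn either. Of 84 alternative values 56 stayed on the same side of 1, where a ratio, and within the 95% interval of the reported value. Leaving out intervals that touch the anti-GFP list removed 0 of 173 HP1 intervals, which cannot test the HP1 results, and 7 of 714 H3K9me3 intervals, and none of the 5 H3K9me3 results moved beyond its interval. With the boundary 0.5 Mb farther out, 35.1% of protein-coding genes held HP1 and 31.9% H3K9me3, the first step was emptier than the rest (ratios 0.0590 and 0) and the ratio of genes to deserts for H3K9me3 was 0.916. With the boundary 0.5 Mb farther in, the HP1 ratio of the first step was 2.86. With a −log10 q-value of at least 10, 28.2% of HP1 and 21.7% of H3K9me3 intervals were shared, where both lists are shorter by construction, 10.6% of H3K9me3 intervals lay at gene ends, and the H3K9me3 ratios were 1.32 for genes to deserts and 2.21 for the first step. With the intervals of 1 call joined, 57.3% of HP1 intervals were shared and 27.3% lay at gene ends, and the HP1 ratio of the first step was 2.85. Asking for 50% of the interval left 27.2% of HP1 and 10.6% of H3K9me3 intervals shared, and asking for 50% of both left 19.1% and 4.62%. By the middle base 5.78% of HP1 and 0.980% of H3K9me3 intervals lay at gene ends, and with protein-coding genes only 3.22% of H3K9me3 intervals did. When 10% of a gene had to be covered, 51.4% of genes qualified for HP1 and 43.2% for H3K9me3. With deserts of at least 100 kb the HP1 ratio of genes to deserts was 7.09. The H3K9me3 ratio of genes to deserts, whose reported interval includes 1, was below 1 with deserts of at least 20 kb (0.937), with HWT intervals only (0.989) and without the intervals of nAChRalpha4 (0.984), an alternative chosen after seeing the data. Without nAChRalpha4 the HP1 ratio of the first step was 2.1. Except where fewer intervals by construction are named, the cause was not tested.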

Other observations

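Of the 31 annotated genes of pericentric 3L that do not encode proteins, HP1 reached into 12 (38.7%, exact binomial 95% interval 21.9 to 57.8) and H3K9me3 into 19 (61.3%, 42.2 to 78.2), overlapping shares, with 11 holding both and 8 H3K9me3 alone. The shares over all such genes of the genome were not computed, so what is usual for them is unknown here. The overlapping lncRNA:CR46252 and lncRNA:CR45181 next to vtd and the microRNA gene mir-4942 next to ND-MLRQ lay wholly under both marks. The snoRNA gene snoRNA:Me18S-G1358c, inside RpL15, lay wholly under both, while snoRNA:Me18S-C419 in the same gene lay wholly under HP1 with no base under H3K9me3. lncRNA:CR46482, which spans eIF4B, had 10.5% of its 60080 bp under HP1 and 7.04% under H3K9me3. The pseudogenes CR40450, CR41320 and CR43170 held H3K9me3 without HP1. The pseudogene CR12460 had 86.6% under HP1 and 27.8% under H3K9me3. The pseudogenes CR41454, CR42722, CR42723, CR41597, CR40354 and CR14578 held neither mark. These genes were chosen after their values were seen.

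Many listed intervals are pieces of 1 call with gaps between them. In pericentric 3L 38 of 110 HP1 calls and 93 of 588 H3K9me3 calls were listed in several pieces, with median gaps of 410 bp and 352 bp. Of the gap sequence of HP1 calls 9.32% lay under H3K9me3 intervals, against 42.4% of the listed pieces of the same calls. For H3K9me3 calls 12.2% of the gap sequence and 31.8% of the pieces lay under HP1. Background regions covered 0% and 0.649% of these gaps. What the gaps hold was not tested.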
